A study of Mus musculus with 4 samples.

Results

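The 10 genes described here are known for their expression in the thalamus, the diencephalic relay that borders the midbrain, and were measured in the ventral midbrain of mice with and without REV-ERBα. They are Ptpn3, Vav3, Plekhg1, Rgs16, Lef1, Synpo2, Adarb1, Tnnt1, Tcf7l2 and Gbx2. For each gene the probe sets annotated to that symbol alone were taken, and where a gene had several, the one with the highest mean over the 4 arrays. This gave 10 genes of the 19938 with such a probe set. The members were chosen by their known thalamic expression and on the RKO and WT log2 intensities of these same arrays, so their differences between the groups are given as a description, with no test.

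The RKO group consisted of 2 arrays from male Rev-erba knock-out mice and the WT group of 2 arrays from male wild-type mice, both aged 10 to 15 weeks and on a C57BL/6J background. Both groups were entrained to 12 h of light a day for more than 10 days and then spent 2 days in constant darkness, and tissue was taken on the day after. The sources used here do not give the hour of collection, the deleted part of the gene or the number of mice behind an array. The labels call the replicates biological. Each deposited value was a normalized intensity, the brightness of a probe set after RMA processing, and differences are RKO minus WT on the log2 scale with the moderated standard error (SE) of limma.

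The thalamus passes sensory and motor signals to the cortex through excitatory neurons. In the embryo its neurons are set apart by the homeobox factor GBX2 and by TCF7L2 and LEF1, the DNA-binding partners of β-catenin in the Wnt pathway. TCF7L2 stays on in adult thalamic and habenular neurons, where it maintains their gene expression. No thalamus sample was analysed here, so the enrichment of these genes in that tissue rests on background knowledge.

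Nr1d1, the targeted gene, was lower in both arrays labelled RKO. It read 1259 and 1229.7 in the RKO arrays, against 2897 and 3099 in the WT arrays (difference -1.27, SE 0.0589). Where this probe set lies relative to the deletion is unknown, which limits it as a check of the labels. Over the 13587 genes above the filter on dim probe sets, limma with Benjamini-Hochberg adjustment called 87 higher and 131 lower in RKO. The defining dopamine neuron gene of the ventral midbrain, Th, was present in all 4 arrays, at 3620.0 and 3664 in RKO and 2168 and 2248 in WT. The median intensity of the tested genes was 540 and 559 in RKO and 559 in both WT arrays, so RKO replicate 1 stood slightly lower in these genes. Over all probe sets its median was instead the highest, at 240.1, against 235.7 in RKO replicate 2 and 236.8 and 236.3 in the WT arrays.

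All 10 genes lay above the filter, an intensity of 167. The groups did not overlap for 8 of the 10, beside 41.8% of all tested genes. Both RKO arrays were below both WT arrays for 7 of the 10, namely Ptpn3, Vav3, Plekhg1, Lef1, Synpo2, Adarb1 and Tnnt1. Over all tested genes this held for 24.6%. Both RKO arrays were above both WT arrays for Rgs16 (17.2% of tested genes), and the groups overlapped for Tcf7l2 and Gbx2. The median difference over the 10 genes was -0.21, beside -0.01 over all tested genes, and single genes ran from -0.44 for Ptpn3 to 0.31 for Rgs16. In the fit over all genes Ptpn3 and Vav3, 2 of the 10, had an adjusted p under 0.05, where 1.6% of tested genes did and 0.964% did with a lower RKO mean. None of the 10 was called higher, beside 0.64% of tested genes. Because this contrast chose the genes, nothing is read from these counts.

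**Figure D1:**
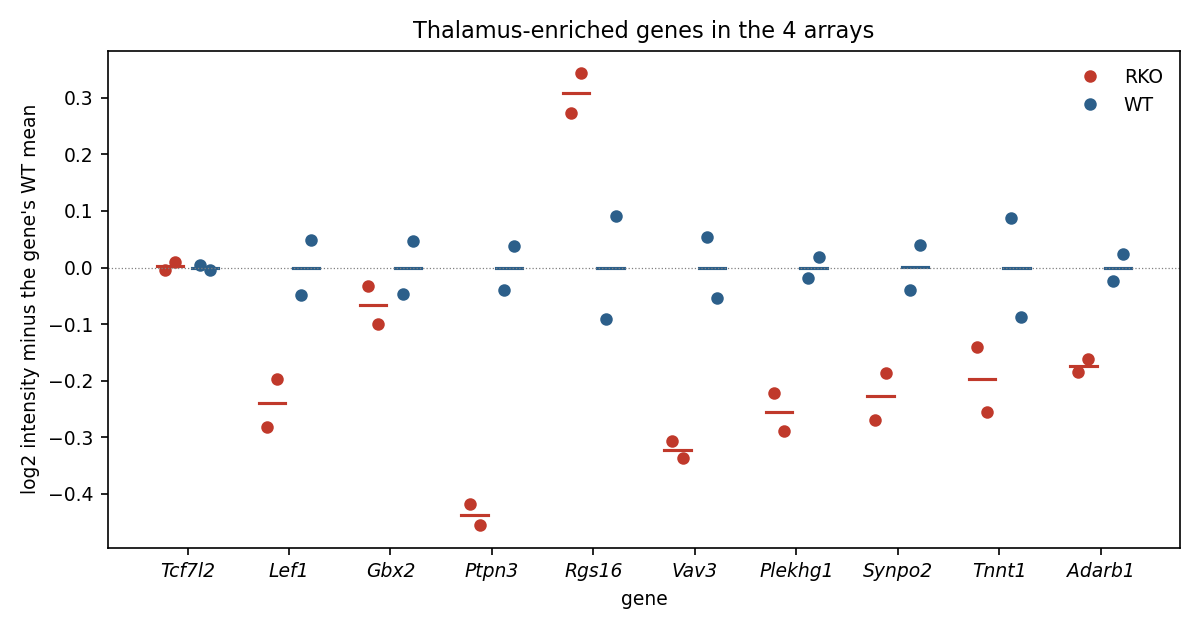
Log2 intensity of each thalamus-enriched gene in the 4 arrays, set to 0 at the gene's WT mean (y axis), with genes ordered by role along the x axis. Points are single arrays, RKO left and WT right, and short bars are group means. Rgs16 is the gene with both RKO arrays above both WT arrays, at a difference of 0.31, while the groups overlap for Tcf7l2 and Gbx2.

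Among the transcription factors, Tcf7l2 had the smallest difference of the 10 genes. It read 1935 and 1953 in the RKO arrays, against 1947 and 1934 in the WT arrays (difference 0.00263, SE 0.0546). The arrays of the groups interleaved, and the whole range was narrow. Lef1, which encodes its relative in the same pathway, read 558 and 592 in RKO and 656 and 701 in WT (difference -0.24, SE 0.0611, 1.18-fold lower). The groups did not overlap, with the nearest arrays 0.15 apart. Gbx2 read 379 and 362 in RKO and 376 and 401 in WT (difference -0.07, SE 0.0599). RKO replicate 1 lay between the WT arrays, so its groups overlapped. Leaving out each array in turn put the difference between -0.11 and -0.02.

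Ptpn3 encodes a cytosolic tyrosine phosphatase with a FERM and a PDZ domain. It read 1543 and 1503 in the RKO arrays, against 2007 and 2118 in the WT arrays (difference -0.44, SE 0.0576, 1.35-fold lower). Each group was tight, with a gap of 0.38 between the nearest arrays. Ptpn3 is the one gene of the 10 with more than 1 probe set. Its 12 probe sets are annotated to the same gene, at positions not looked up here, and read the same 4 RNA samples. They are no replicates. In 11 of them both RKO arrays lay below both WT arrays, and the differences ran from -0.48 to -0.15 with a median of -0.28. The exception was the fifth by level, which read 1004 and 1081 in RKO and 1360.1 and 1079 in WT. There WT replicate 2 lay just below RKO replicate 2. The probe set taken for the gene was the brightest and had the second deepest difference of the 12, so a mean over the 12 gives a smaller value (-0.30).

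**Figure D2:**
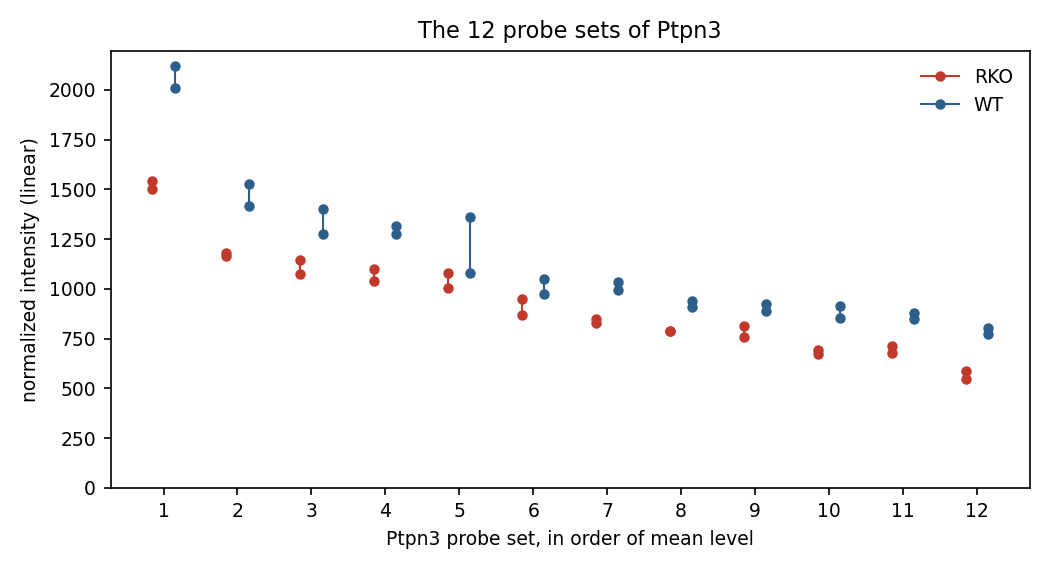
Normalized linear intensity of the 12 Ptpn3 probe sets (y axis), ordered by mean level along the x axis. Points are arrays, joined within a group, with RKO left of WT, and in 11 of the 12 probe sets both RKO points lie below both WT points.

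Rgs16 was the 1 gene of the 10 with both RKO arrays above both WT arrays. It encodes a regulator of G protein signalling that speeds up GTP hydrolysis by Gα subunits, and in the mouse it is known for its daily rhythm in the suprachiasmatic nucleus. It read 1758 and 1845 in the RKO arrays, against 1365 and 1549 in the WT arrays (difference 0.31, SE 0.0689, 1.24-fold higher). The gap between the groups was 0.18, and the WT arrays differed from each other by as much (0.18). Leaving out each array in turn put the difference between 0.22 and 0.40. Of its relatives, Rgs2 (0.06, adjusted p = 0.835), Rgs4 (-0.09, adjusted p = 0.556), Rgs5 (-0.16, adjusted p = 0.227) and Rgs8 (-0.06, adjusted p = 0.800) did not pass in limma over all genes.

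Vav3 and Plekhg1 encode guanine nucleotide exchange factors. Vav3 read 637 and 624 in the RKO arrays, against 818 and 759 in the WT arrays (difference -0.32, SE 0.0597, 1.25-fold lower). Plekhg1 read 1747 and 1669 in RKO and 2013 and 2063 in WT (difference -0.26, SE 0.0569, 1.19-fold lower). In both genes the gap between the groups, 0.25 for Vav3 and 0.20 for Plekhg1, was wider than the distance between arrays of 1 group.

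Synpo2 encodes an actin-binding protein of the synaptopodin family, Tnnt1 the slow skeletal form of troponin T, and Adarb1 an enzyme that turns adenosine into inosine in RNA, glutamate receptor transcripts among them. Synpo2 read 923 and 979 in the RKO arrays, against 1082 and 1145 in the WT arrays (difference -0.23, SE 0.0600, 1.17-fold lower). Adarb1 read 2437 and 2476 in RKO and 2726 and 2815 in WT (difference -0.17, SE 0.0556, 1.13-fold lower). Both genes kept their groups apart, by 0.15 and 0.14. Tnnt1 read 440.5 and 407 in RKO and 516 and 457 in WT (difference -0.20, SE 0.0707, 1.15-fold lower). Its WT arrays differed from each other by 0.17, close to the difference between the groups, and the gap was 0.05. Without WT replicate 1 the difference was -0.11.

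The distance between arrays of 1 group was not used in choosing the genes. Set against WT replicate 1, WT replicate 2 was higher for 7 of the 10 genes and lower for 3, with a median of 0.06, where the median of all tested genes was -0.00012 and 49.95% lay above 0. The largest steps were those of Rgs16 (0.18), Tnnt1 (-0.17), Vav3 (-0.11) and Lef1 (0.10), so the genes did not all move one way within the WT pair. Set against RKO replicate 1, RKO replicate 2 was higher for 5 and lower for 5, with a median of -0.01, beside 0.04 over all tested genes, of which 68.1% lay above 0. Tnnt1 (-0.11) was the lowest and Lef1 (0.08) the highest. The median size of the step was 0.09 in the WT pair and 0.07 in the RKO pair for these genes, and 0.06 in both pairs over all tested genes.

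**Figure D3:**
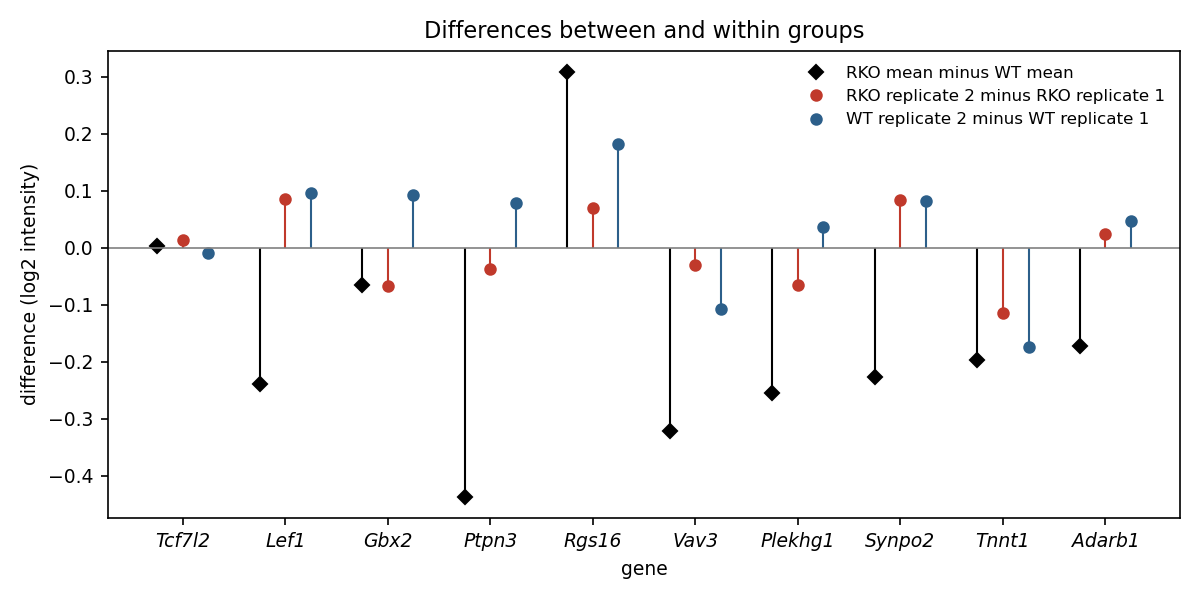
Difference in log2 intensity (y axis) for each thalamus-enriched gene (x axis), as the RKO mean minus the WT mean (diamonds), and as replicate 2 minus replicate 1 within RKO and within WT (circles). For Tnnt1 the step within WT (-0.17) is close to the difference between the groups (-0.20), and for Ptpn3 the difference (-0.44) exceeds both steps.

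The mean of the 10 centred profiles was lower in both RKO arrays (-0.08 each) than in the WT arrays (0.06 and 0.10). Adarb1 lay closest to it, at a root mean square distance of 0.0126 over the 4 arrays, and Rgs16 farthest, at 0.242. The 6 other tested genes nearest to that mean profile were Pik3c2b, Spaca6, Stmn4, Cep20, Calb2 and Doc2b, at distances from 0.00437 to 0.0102. Their differences ran from -0.18 (Doc2b) to -0.14 (Spaca6), and limma over all genes called none of the 6 (adjusted p from 0.175 to 0.289). Both follow from picking genes that match this profile, since the smallest size among called genes was 0.264. Of the 6, Calb2, which encodes the calcium-binding protein calretinin, is also on the list of other thalamic genes. Nothing is read from that, as the members' own differences set the profile.

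Sequences upstream of the genes are shown for 3 members: Rgs16, with the largest difference upward, Ptpn3, with the largest downward, and Gbx2, 1 of 2 genes in which a searched motif was found. Each runs 5′ to 3′ in the direction of the gene over 300 bases, 250 before to 50 after a transcript start of RefSeq on GRCm38.p6, with motif matches in capitals. All 10 genes had at least 1 such window, 16 in all, since Vav3, Lef1 and Tcf7l2 have several starts.
Rgs16 (chr1:153740103-153740402, plus strand): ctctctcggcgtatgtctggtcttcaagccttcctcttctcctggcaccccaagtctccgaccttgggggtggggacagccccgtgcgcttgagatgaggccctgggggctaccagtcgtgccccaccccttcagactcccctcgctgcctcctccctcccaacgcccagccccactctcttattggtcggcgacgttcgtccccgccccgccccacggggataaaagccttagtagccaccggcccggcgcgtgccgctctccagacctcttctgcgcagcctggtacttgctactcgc
Ptpn3 (chr4:57301788-57302087, minus strand): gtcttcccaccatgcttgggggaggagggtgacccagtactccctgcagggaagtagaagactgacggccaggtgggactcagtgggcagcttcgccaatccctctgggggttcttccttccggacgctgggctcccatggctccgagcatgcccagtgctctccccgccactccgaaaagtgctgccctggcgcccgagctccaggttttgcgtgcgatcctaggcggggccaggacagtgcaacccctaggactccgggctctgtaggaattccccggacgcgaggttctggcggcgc
Gbx2 (chr1:89931127-89931426, minus strand): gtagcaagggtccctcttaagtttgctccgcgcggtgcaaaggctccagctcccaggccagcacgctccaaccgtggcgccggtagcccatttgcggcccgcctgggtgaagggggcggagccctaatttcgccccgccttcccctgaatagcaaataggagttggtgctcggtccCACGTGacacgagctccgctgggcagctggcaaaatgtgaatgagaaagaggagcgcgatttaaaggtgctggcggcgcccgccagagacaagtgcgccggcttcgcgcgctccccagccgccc

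The 5 motifs searched on both strands, whose matches did not overlap, were the TCF/LEF core CTTTGAT, the REV-ERB and ROR half-site AGGTCA, the E-box CACGTG bound by clock factors, the D-box as TTATGTAA or TTACGTAA, and the cyclic AMP element TGACGTCA. The E-box occurred once in the Gbx2 window, 74 bases before the start, and once in 1 of the 4 Lef1 windows, the one at chr3:131156044-131156343 (plus strand), 79 bases before that start. It is present in 7.15% of the 32851 RefSeq windows of this length. The TCF/LEF core (3.73% of all windows), the half-site (16.3%), the D-box (1.06%) and the cyclic AMP element (1.79%) had 0 matches in the 16 windows. No match says only that these letters are absent from these windows.

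Among further genes of thalamic neurons, a few fell in RKO, led by the neuropeptide receptor partner Ramp3 and the protein kinase Cδ gene Prkcd. Most did not pass in limma over all genes. Of 24 listed genes 23 had a probe set of their own and 20 passed the filter. Of these 20, 4 fell, 0 rose and 16 did not pass in limma with adjustment over all genes, where 0.964% of tested genes were called lower. Without adjustment 9 of the 20 had a limma p under 0.05, beside 12.8% of all tested genes. The median difference of the 20 was -0.10, with 16 of 20 below 0, against 56.8% of all tested genes. Earlier results of these data were known when the list was drawn up, so these counts are a description. Ramp3 read 629 and 664 in the RKO arrays, against 984 and 1085 in the WT arrays (difference -0.68, SE 0.0648, adjusted p = 4.52e-04). Prkcd, a marker of relay neurons, read 2303 and 2420.1 in RKO and 3459 and 3528 in WT (difference -0.57, SE 0.057, adjusted p = 6.67e-04). In both genes the groups lay far apart relative to the distance within them, and both were called under every alternative run.

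Rora, a nuclear receptor gene of thalamic relay neurons, read 1668 and 1790 in the RKO arrays, against 2199 and 2229 in the WT arrays (difference -0.36, SE 0.0589, adjusted p = 0.0109). Slc17a7, a vesicular glutamate transporter gene, read 914 and 999 in RKO and 1185 and 1230.0 in WT (difference -0.34, SE 0.0623, adjusted p = 0.0218). Among those that did not pass, the largest differences were those of Necab1 (-0.21, adjusted p = 0.112), Cbln1 (-0.19, adjusted p = 0.151) and Plcb4 (-0.17, adjusted p = 0.226). Slc17a6, another vesicular glutamate transporter gene, stood at -0.09 (adjusted p = 0.564). The 4 tested genes above 0 were Lhx9 (0.06), Lhx2 (0.05), Cbln2 (0.04) and Cdh6 (0.00055). Without RKO replicate 1 the calls of Rora and Slc17a7 were lost and 2 of the 20 remained, and without WT replicate 2 that of Slc17a7 was lost. The list was drawn up with earlier results of these data known, including falls of Ramp3, Rora and Slc17a7. In bulk tissue, fewer cells of a type and less RNA per cell cannot be told apart.

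**Figure D4:**
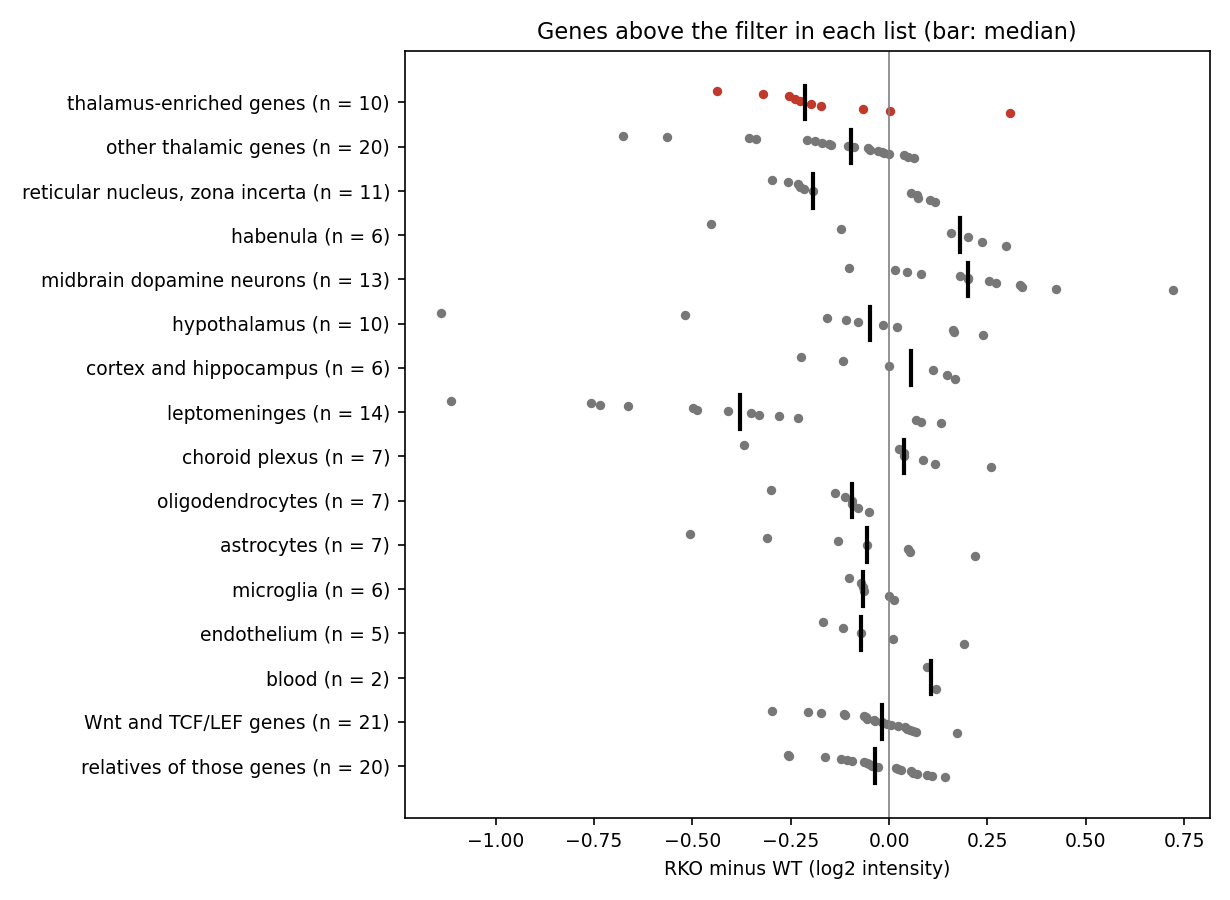
Difference in log2 intensity, RKO minus WT (x axis), of each gene above the filter, by gene list (y axis). Points are genes, red for the thalamus-enriched genes, and black bars are list medians, which lie at -0.21 for those genes, -0.10 for the other thalamic genes, -0.38 for the leptomeninges and 0.20 for the midbrain dopamine neurons.

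Markers of tissue that borders the ventral midbrain are given beside the thalamic genes, as counts, medians over the tested genes and intensities summed over the listed genes on the array, dim ones included. An unadjusted p under 0.05 was reached by 12.8% of all tested genes. For the 10 thalamus-enriched genes the sums were 12357 and 12409 in the RKO arrays, against 13505 and 13941 in the WT arrays, a description since these values chose the genes. Over the 23 other thalamic genes the sums were 30361 and 31338 in RKO and 34959 and 34867 in WT. Such sums weigh the brightest probe sets most. The 11 genes of the thalamic reticular nucleus and zona incerta, inhibitory nuclei around the thalamus, had 0 calls by limma, though 6 reached an unadjusted p under 0.05, and a median of -0.19 (-0.10 without RKO replicate 1). Ecel1 (-0.30, adjusted p = 0.0827), Isl1 (-0.26, adjusted p = 0.0713) and Dlx1 (-0.23, adjusted p = 0.240) had the largest differences, and the sums were 5233 and 5490.4 in RKO against 5655 and 5712 in WT. In the habenula list Tac2, the neurokinin B precursor gene, fell (-0.45, adjusted p = 0.00251, lost without RKO replicate 1), and 5 of 6 tested genes did not pass. The median of the 6 was 0.18, and the 9 habenula genes on the array summed to 2484 and 2534 in RKO against 2308 and 2422 in WT. Chrna5 (0.30, adjusted p = 0.103), Irx2 (0.24, adjusted p = 0.0742) and Chrna3 (0.20, adjusted p = 0.183) were its largest differences that did not pass, and its defining genes Gpr151 and Pou4f1 lay below the filter.

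The lists below were also drawn up with earlier results of these data known, so their counts are a description. Of all tested genes, 0.964% were called lower and 0.64% higher. An unadjusted limma p under 0.05 was reached by 12 of 14 leptomeningeal, 5 of 10 hypothalamic and 9 of 13 dopamine neuron genes. Of 14 tested leptomeningeal genes 9 fell (4 with no filter) and 0 rose, with a median of -0.38. The 15 genes on the array summed to 5657 and 5658 in RKO against 7248 and 7371 in WT. Ogn, a matrix proteoglycan gene, had the deepest difference (-1.11, adjusted p = 1.66e-05), followed by Islr (-0.76), Itih2 (-0.74), Slc13a4 (-0.66), Aldh1a2 (-0.50), Slc6a13 (-0.49), Dcn (-0.41), Bgn (-0.35) and Slc22a6 (-0.28). The collagen genes Col1a1 (0.13), Col3a1 (0.08) and Col1a2 (0.07) did not pass and had both RKO arrays above both WT arrays. The calls of Dcn and Bgn were lost without RKO replicate 1, that of Aldh1a2 without RKO replicate 2, and that of Slc22a6 without WT replicate 2, RKO replicate 1 or RKO replicate 2. Of 10 hypothalamic genes 2 fell, Pmch (-1.14, adjusted p = 1.35e-05) and Hcrt (-0.52, adjusted p = 0.0268, lost without RKO replicate 2), and the median was -0.05 (-0.02 without RKO replicate 2). The 11 genes on the array summed to 2674 and 2557 in RKO against 2953 and 3010.5 in WT. Of 13 midbrain dopamine neuron genes 4 rose, Th (0.72), Slc18a2 (0.42), Ddc (0.34) and Slc6a3 (0.33), with a median of 0.20 and sums of 21321 and 21999 in RKO against 17654 and 18123 in WT. The count was 2 without RKO replicate 1 and 1 without RKO replicate 2. Cortical and hippocampal genes had 0 calls by limma among 6, of which 3 reached an unadjusted p under 0.05, and a median of 0.06 (0.03 without WT replicate 1 and 0.09 without WT replicate 2). The part of these tissues in the values of the thalamus-enriched genes was not tested.

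The median differences of lists of other cell types in the tissue were 0.04 for choroid plexus, -0.09 for oligodendrocytes, -0.06 for astrocytes, -0.07 for microglia, -0.07 for endothelium and 0.11 for blood, the last from 2 genes. With an array left out these medians lay between -0.13 and 0.16, and that of choroid plexus was -0.02 without RKO replicate 2. All 7 oligodendrocyte genes had both RKO arrays below both WT arrays, beside 13 of the 20 other thalamic genes and 24.6% of all tested genes. Their median was close to that of the other thalamic genes (-0.10). Calls were found for Kcnj13 of the choroid plexus list (-0.37, adjusted p = 0.0166), Opalin of oligodendrocytes (-0.30, adjusted p = 0.0446), and Gfap (-0.51, adjusted p = 0.00136) and Aldh1l1 (-0.31, adjusted p = 0.0416) of astrocytes, each lower. Gfap passed whichever array was left out. Kcnj13 lost its call without WT replicate 2, RKO replicate 1 or RKO replicate 2, Opalin without any array but WT replicate 2, and Aldh1l1 without WT replicate 1 or RKO replicate 1.

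Lef1 and Tcf7l2 act at the end of the Wnt pathway, and 21 of its other genes were tested. Nkd1, a feedback inhibitor gene that Wnt signalling induces, fell, with no overlap between the groups, to 652 and 656 in RKO, against 796 and 812 in WT (difference -0.30, SE 0.0549, adjusted p = 0.0215). It lost this call when any 1 array was left out. The other 20 did not pass. Among them Apcdd1 (-0.21, adjusted p = 0.118) and the feedback gene Axin2 (-0.17, adjusted p = 0.317) had the largest negative differences, Lgr5 (0.17, adjusted p = 0.207) the largest positive one, and Ctnnb1, which encodes β-catenin, stood at -0.04 (adjusted p = 0.877). The median of the list was -0.02, close to that of all tested genes.

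Family relatives of the 10 genes gave 0 calls by limma among 20 tested, of which 3 reached an unadjusted p under 0.05, beside 12.8% of all tested genes. Their median was -0.04. Beside Ptpn3, the phosphatase genes Ptpn13 (-0.26, adjusted p = 0.0550) and Ptpn4 (-0.26, adjusted p = 0.0654) came nearest to the threshold, with both RKO arrays below both WT arrays in each. Vav2 (-0.04, adjusted p = 0.846), beside Vav3, did not pass. Beside Adarb1, the editing enzyme gene Adar (-0.03, adjusted p = 0.907) and Adarb2 (-0.11, adjusted p = 0.494) did not pass either.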

How the data were processed

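Expression was measured on 4 Affymetrix mouse gene arrays, 2 RKO and 2 WT. The deposited values are normalized intensities on a linear scale. The submitters' processing notes name GCOS and RMA but neither versions nor settings. Per the labels' protocols, cRNA was made from 1 µg of total RNA. Here the intensities were transformed to log2 with no pseudocount. Platform annotation gave 1 symbol for 21789 of 35556 probe sets, several for 1621 and none for 12146, and probe sets without a single symbol were not used. For each gene the probe set with the highest mean was kept. Genes whose mean lay under a cutoff of log2 7.38, the 40th percentile over probe sets, were removed, which left 13587. RKO was compared with WT in limma 3.58.1 (R 4.3.3, lmFit, then eBayes), two-sided, with Benjamini-Hochberg adjustment over all tested genes and a threshold of 0.05. The fit had 2 residual and 8.73 prior degrees of freedom. How many mice each array stands for is unknown, so p-values measure only the spread between these arrays, which may be partly technical. On simulated data for this comparison over 13587 genes, the fit recovered 28% of genes changed by 0.25 on the log2 scale, 96% at 0.5 and 100% at 1. The number of arrays limits the precision.

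The members and lists were chosen with earlier results of these data known. Named are every member, the called genes of each list with up to 3 more by size, Nr1d1, and the 6 closest profiles. Some relatives of the members (Rgs2, Rgs4, Rgs8, Vav2, Adar, Adarb2), Ctnnb1, Gpr151, Pou4f1, Slc17a6, Lhx9, Lhx2, Cbln2 and Cdh6 were added after their values were seen. For lists of adjoining tissue and other cell types the further genes by size are mostly left out. List genes without a probe set of 1 symbol were not analysed here. Promoter sequences came from RefSeq (GRCm38.p6). Alternatives were other filters, scalings, probe set means, eBayes options, left-out arrays and a replicate block.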

Additional observations from a re-analysis of the deposited data

How the results depend on the processing

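The median difference of the 10 thalamus-enriched genes was the same, -0.21, with other filters, probe set means, other eBayes options and replicate blocks. With median centring (-0.22) and quantile normalization (-0.19) it moved by less than the spread between replicates. The same held when arrays were left out, where it lay between -0.23 and -0.19. Of the 10, 9 kept the sign of their difference in all 13 alternatives. This was largely fixed in advance. Filters, eBayes options and replicate blocks do not alter a difference, and probe set means alter only that of Ptpn3. Leaving out an array cannot reverse the sign where the groups do not overlap. Tcf7l2 changed sign in 3 of the 13 alternatives, within -0.01 to 0.02. The number of these genes called, 2 with all arrays, was 0 with no filter, 1 with quantile normalization, 6 with median centring or the 60th percentile filter and 7 with an intensity trend. It was 1 without WT replicate 1, RKO replicate 1 or RKO replicate 2, and 3 without WT replicate 2, with Ptpn3 called in each. Over all genes, 218 were called, against 31 with no filter, 455 with median centring, 499 with an intensity trend and between 73 (without RKO replicate 1) and 293 (without WT replicate 2) with an array left out; the cause was not tested. Of the 20 other thalamic genes 4 were called, against 2 with no filter, 8 with an intensity trend and 2 to 4 with an array left out. With the replicate number as a block, 259 genes were called and 3 of the 10, Rgs16 added. The labels give the groups the same replicate numbers but no shared origin, and the deviations of same-numbered arrays correlated at -0.11. With the numbers crossed, an alternative chosen after seeing the data, 696 genes were called, 5 of the other thalamic genes among them.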
